A study of Mus musculus with 6 samples.

Results

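The genes described here encode splicing factors and heterogeneous nuclear ribonucleoproteins (hnRNPs), measured in 6 RNA sequencing libraries made from liver, per the labels, of male 10-week-old C57BL/6 mice. They were chosen by name alone, as symbols beginning with Srsf, Hnrnp, Snrp, Sf3a, Sf3b, U2af, Prpf or Lsm and a further letter or digit, which gave 81 of the 22564 genes of the table. By class they are 11 SR proteins, 20 hnRNPs, 12 Sm and other snRNP proteins, 8 subunits of SF3A and SF3B, 3 U2AF genes, 13 PRPF genes and 13 LSm genes, and Lsmem1, which meets the rule by spelling and is no LSm protein. The 3 control libraries came from mice labelled only as control, with no statement on vehicle injection in the sources used here. The 3 tunicamycin libraries came from mice injected intraperitoneally every day with 0.2 mg/kg tunicamycin over 14 days. Tunicamycin is an inhibitor of N-linked glycosylation that loads the endoplasmic reticulum (ER) with unfolded glycoproteins.

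Splicing removes introns from pre-mRNA in the spliceosome, a machine built from small nuclear ribonucleoproteins (snRNPs) that each hold an RNA and a ring of Sm or LSm proteins. U2AF reads the 3′ end of the intron, SF3A and SF3B anchor the U2 snRNP at the branch point, and PRPF proteins assemble and drive the later steps. SR proteins bind exons and mostly favour the use of nearby splice sites, while hnRNPs coat the pre-mRNA and often oppose it, and the balance between them sets many alternative exons. Nearly every cell uses these genes, hepatocytes included.

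Depth was low and detection uneven. The libraries held between 541022 and 661145 whole reads on protein-coding genes, recovered from the deposited count columns, and between 3046 and 5482 genes above 0, the fewest in control 1. Of 10 hepatocyte markers in the table, 6 were listed at 0 in all 6 libraries (Ahsg, Apoa1, Cps1, Cyp2e1, Serpina1a and Ttr), which goes against the tissue label. The other 4 were detected. Among them Alb had a mean of 183 FPKM, below that of Sprr1a (539), a marker of stratified epithelium. Whether the samples or the values are at fault was not tested, so the label should be checked. All 5 endothelial, all 5 lymphocyte, 5 of 6 stellate cell and 2 of 5 Kupffer cell and macrophage markers were also at 0 throughout. Nothing in the labels says that the libraries of a group came from separate mice. The p-values thus rest on spread between these libraries, which may be technical and which limma took over genes of like abundance.

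The 250 bases before the RefSeq start (GRCm38.p6) are printed for Srsf1 and Srsf11, which are 2 of the 3 members whose FPKM did not overlap between groups (the other is U2af2), and for Hnrnpa3, the member with an ER stress motif. Capitals mark a GC box (GGGCGG on either strand) in the Srsf1 and Srsf11 windows and the ER stress response element (ERSE, CCAAT and CCACG with 9 bases between them, on either strand) in that of Hnrnpa3.
Srsf1, chr11:88047123-88047372, plus strand: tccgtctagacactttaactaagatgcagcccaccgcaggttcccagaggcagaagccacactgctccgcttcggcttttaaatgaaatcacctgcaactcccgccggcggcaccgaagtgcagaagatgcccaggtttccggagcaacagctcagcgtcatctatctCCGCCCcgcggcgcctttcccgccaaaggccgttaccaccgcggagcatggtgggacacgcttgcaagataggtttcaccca
Srsf11, chr3:158036607-158036856, minus strand: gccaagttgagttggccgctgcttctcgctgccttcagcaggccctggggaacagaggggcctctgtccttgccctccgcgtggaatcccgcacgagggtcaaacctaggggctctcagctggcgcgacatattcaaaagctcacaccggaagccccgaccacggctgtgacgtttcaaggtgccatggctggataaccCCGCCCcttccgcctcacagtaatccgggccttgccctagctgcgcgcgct
Hnrnpa3, chr2:75659009-75659258, plus strand: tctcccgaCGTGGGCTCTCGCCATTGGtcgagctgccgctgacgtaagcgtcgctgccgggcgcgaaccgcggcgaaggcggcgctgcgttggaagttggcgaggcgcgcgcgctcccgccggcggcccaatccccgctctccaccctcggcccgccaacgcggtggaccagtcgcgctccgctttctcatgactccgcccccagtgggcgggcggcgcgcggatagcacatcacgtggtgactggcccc
RefSeq held 91 promoter windows for 68 of the 81 members. These windows also ran past the start and were searched whole, so the shares below do not cover upstream bases alone. An ERSE stood in 1 of the 91, that of Hnrnpa3 (1.1%, against 0.119% of all 32851 windows), while ERSE-II (ATTGG and CCACG with 1 base between them), the UPRE core (TGACGTGG) and the amino acid response element (TGATGNAAT) stood in none (0.0365%, 0.676% and 0.965% of all windows). A GC box stood in 65.9% of member windows and 35.7% of all, and a CCAAT box (CCAAT, which the ERSE also contains) in 48.4% and 37.4%. All motifs were searched on both strands, and a match is a description of letters, not of a bound factor.

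The members were detected more often than genes in general, but thinly. Of the 81, 23 were above 0 in all 6 libraries (28.4%, against 4.98% of all genes), and 9 were at 0 in all 6 (11.1%, against 61.3%). Those 9 were Srsf12, Snrpe, Snrpn, Prpf40b, Lsm1, Lsm5, Lsm7, Lsm11 and Lsmem1. FPKM, a fragment count divided by transcript length and library size, can be exactly 0 through a failed estimate. Snrpe, a core Sm protein, and Lsm5 and Lsm7, which belong to the U6 ring, are used by every cell, so a listed 0 is not read as absence. With so few reads, a gene without any may still hold up to 0.000454% to 0.000555% of the library (3 reads, for counting error only). Reads came in clumps, however. Among genes with 10 or more reads, the most frequent number per gene ranged from 42.2 (tunicamycin 1) to 133 (control 1). The true limit may therefore be higher, and folds given below with a floor of 3 reads are no bounds. Of the 486 values of members in libraries, 191 held 0 reads, 21 held 1 to 9 and 274 held 10 or more.

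**Figure D1:**
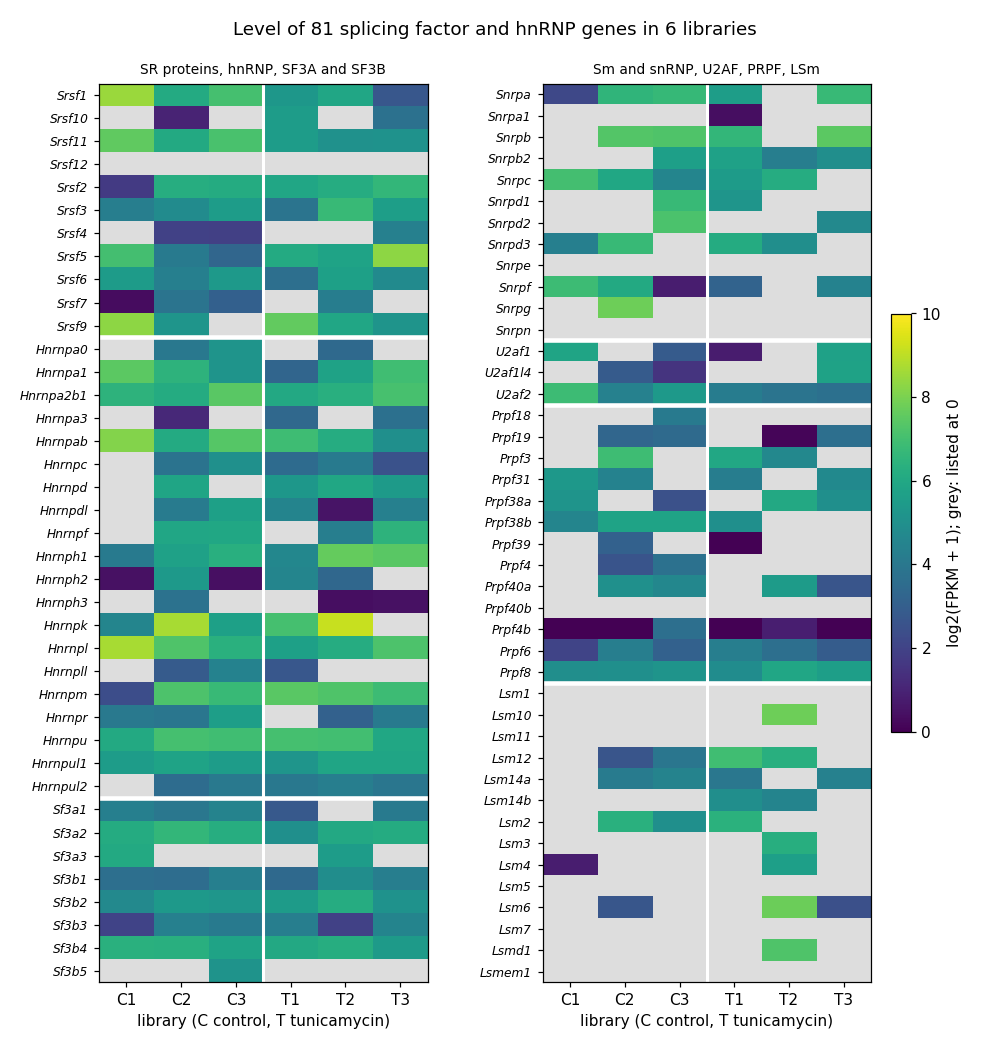
Level of each of the 81 members (rows, grouped by class) in the 3 control (C) and 3 tunicamycin (T) libraries, as log2(FPKM + 1), with grey for genes listed at 0. 23 members are above 0 in every library, and grey gaps fall in both groups, most often among the LSm genes.

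Only 19 members held at least 10 reads in every library (23.5%, against 3.27% of all genes). They comprised 8 hnRNPs (Hnrnpa1, Hnrnpa2b1, Hnrnpab, Hnrnph1, Hnrnpl, Hnrnpm, Hnrnpu and Hnrnpul1), 5 SF3 subunits (Sf3a2, Sf3b1, Sf3b2, Sf3b3 and Sf3b4), 4 SR proteins (Srsf3, Srsf5, Srsf6 and Srsf11), U2af2 and Prpf8. No Sm or LSm gene was among them. The shortest members were detected in fewer libraries. The 10 members whose longest coding transcript is at most 1000 nt were above 0 in 1.8 libraries on average and none of them in all 6, whereas the 16 members of over 4000 nt were above 0 in 4.38 on average and 6 of them in all 6. Across the 80 members with an annotated length, Spearman's rho between length and the number of libraries was 0.289 (a description across genes of the same 6 libraries; rho was 0.292 over the 72 members detected at all and 0.154 over the 8554 such genes of the table).

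**Figure D2:**
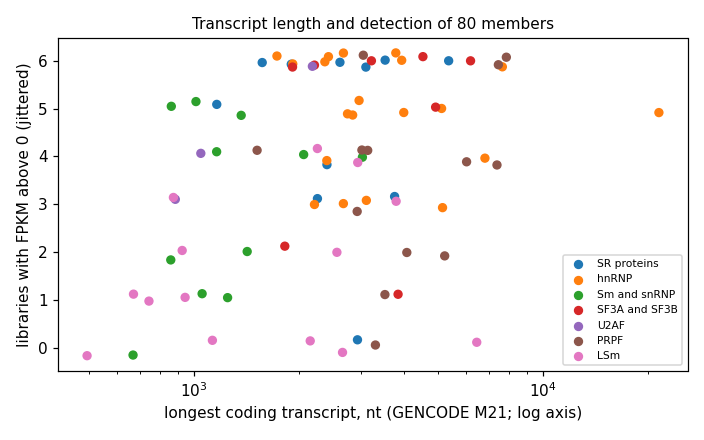
Longest coding transcript (nt, log axis, GENCODE M21) against the number of libraries with FPKM above 0, for 80 members coloured by class, with vertical jitter. The short Sm and LSm genes at the left lie mostly at 0 to 5 libraries, and no member under 1000 nt reaches 6.

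The central comparison was of tunicamycin with control, and no member passed its test. Of the 71 members with a mean FPKM of at least 1, 0 had an adjusted p under 0.05 in limma, against 0.065% of the 7696 genes tested, and their adjusted p lay between 0.852 and 0.999. On whole reads edgeR called 0 members (0.039% of all genes) and DESeq2 0 (1.26% of the 3494 genes with an adjusted p). Unadjusted p was under 0.05 for 3 members in limma (Srsf1, Hnrnpd and Prpf38b; 3.09% of all genes), for 1 in edgeR (Lsm14b; 1.49%) and for 4 in DESeq2 (Hnrnpab, Hnrnpa3, Prpf4 and Lsm14b; 6.83%), so these shares were near those of all genes. Because limma estimated infinite prior degrees of freedom, each SE and p came from genes of like abundance and not from the gene's own spread. A p that misses the threshold does not show that levels were alike.

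Summed over all members, this gene group took 1.16, 1.30 and 1.28% of the reads in controls and 0.935, 1.35 and 1.22% after tunicamycin. The groups overlapped, and tunicamycin 1 held the lowest share and tunicamycin 2 the highest. The log2(FPKM + 1) scale understates the change of genes low throughout. With a 0 in single libraries, its difference can exceed the ratio of means or oppose it in sign. On it 31 members were positive (higher after tunicamycin) and 40 negative, with a median log2 fold change of -0.19. Over all genes tested 4013 were positive and 3683 negative, with a median of 0.10. With single libraries left out the members' median ranged from -0.42 to 0.27, and its sign changed. The contrast with all genes depended on unit and detection. In edgeR on reads 35 members were positive and 36 negative (median -0.03), against 3994 and 3702 of all genes (median 0.08). Among those above 0 in all 6 libraries, 11 members were positive and 12 negative (median -0.03), against 510 and 608 genes (median -0.10).

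**Figure D3:**
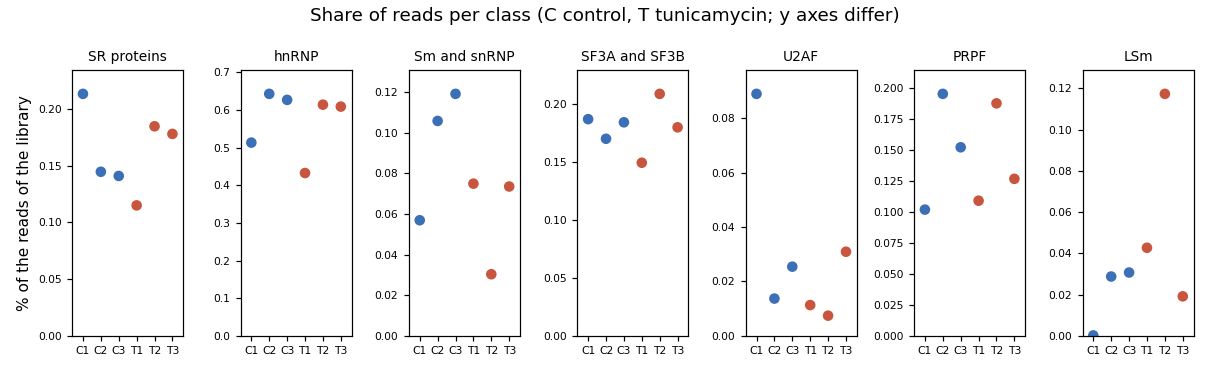
Share of each library's reads (%) that fell on each class, for controls (C, blue) and tunicamycin (T, red), 1 dot per library, with a separate axis starting at 0 for each class. The groups overlap in every class, and tunicamycin 2 stands high for LSm and control 1 for U2AF.

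The SR proteins held 0.213, 0.144 and 0.141% of the reads in controls and 0.115, 0.185 and 0.178% after tunicamycin. Of the 10 tested, 6 were positive and 4 negative (median 0.34; -0.06 without control 1 and 0.97 without tunicamycin 1). Srsf1, the founding SR protein that favours exon inclusion and proximal splice sites, lay at 360.2, 69.03 and 132 FPKM in the control and 38.6, 60.2 and 5.55 in the tunicamycin libraries. All 3 tunicamycin libraries lay below all 3 controls, although tunicamycin 2 came close to control 2. The means were 187 ± 153 and 34.8 ± 27.5 FPKM (control and tunicamycin, SD, n = 3 each; limma log2 fold change -2.58, SE 1.20, adjusted p = 0.852). It was represented by 332, 229 and 126 reads in controls and 116, 93 and 5 after tunicamycin, again without overlap. Per library total the margin was very narrow, with 126 of 661145 reads in control 3 and 116 of 611041 in tunicamycin 1. Its ratio of FPKM means was 0.186, but 0.346 without control 1 and 0.118 without tunicamycin 2.

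Srsf11, an SR-related protein also known as p54, lay at 187, 67.2 and 139 FPKM in the control and 44.9, 32.2 and 33.0 in the tunicamycin libraries (limma log2 fold change -1.71, SE 1.16, adjusted p = 0.852). The FPKM of the groups did not overlap, yet its reads did, with 194, 38 and 211 reads in controls and 49, 18 and 131 after tunicamycin. The ratio of FPKM means was 0.280. Srsf5, an SR protein first described as HRS in regenerating rat liver, showed the reverse arrangement: 128, 16.5 and 8.86 FPKM in the control and 67.4, 55.1 and 312 in the tunicamycin libraries, which overlapped because control 1 was high, but 70, 40 and 44 reads in controls and 93, 72 and 326 after tunicamycin, where every tunicamycin library exceeded every control (limma log2 fold change 1.92, SE 1.25, adjusted p = 0.852). The margin in reads was very narrow, with 72 of 553793 reads in tunicamycin 2 and 70 of 541022 in control 1. The Srsf5 ratio of FPKM means was 2.83, falling to 1.20 without tunicamycin 3 and rising to 11.4 without control 1. Srsf5, and Hnrnpl below for its disagreement of units, were singled out after their values were seen.

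Among the other SR proteins, Srsf9 lay at 315, 35.8 and 0 FPKM in the control and 190.4, 58.8 and 35.3 in the tunicamycin libraries. Srsf2, which binds exonic enhancers, lay at 2.26, 74.1 and 70.9 FPKM in the control and 58.9, 71.4 and 96.5 in the tunicamycin libraries. Srsf9 was at 0 in control 3 alone, and Srsf2 held 1 read in control 1. Srsf9 counted as positive (limma log2 fold change 1.72), although its ratio of FPKM means was 0.810. Srsf3, the smallest SR protein and an exporter of mRNA, ranged from 13.2 to 105 FPKM and Srsf6 from 11.6 to 50.6, with overlapping groups.

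U2AF, the factor of the 3′ splice site, held 0.0889, 0.0137 and 0.0254% of the reads in controls and 0.0113, 0.00740 and 0.0309% after tunicamycin. Of the 3 tested, 1 was positive and 2 negative, with a median of -0.75 that was 0.05 in edgeR on reads and ranged from -2.19 to 0.32 with single libraries left out. U2af2, its large subunit, which binds the polypyrimidine tract, lay at 114, 20.0 and 40.4 FPKM in the control and 17.1, 13.5 and 12.0 in the tunicamycin libraries and held 409, 75 and 150 reads in controls and 68, 41 and 46 after tunicamycin. Neither FPKM nor reads overlapped between the groups, and the tunicamycin libraries were close to each other. The means were 58.1 ± 49.3 and 14.2 ± 2.65 FPKM (control and tunicamycin, SD, n = 3 each; limma log2 fold change -1.62, SE 1.57, adjusted p = 0.852). The ratio of FPKM means was 0.245, but 0.470 without control 1. Its partner U2af1, which contacts the AG dinucleotide, lay at 56.1, 0 and 6.41 FPKM in the control and 0.690, 0 and 51.2 in the tunicamycin libraries, and the U2af1-related U2af1l4 at 0, 6.31 and 1.81 FPKM in the control and 0, 0 and 53.6 in the tunicamycin libraries. Both were at 0 in at least 1 library of each group.

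Srsf1, Srsf11 and U2af2 were thus the members whose FPKM did not overlap, 3 of 71, all lower after tunicamycin, and 0 were higher. Over all genes tested, 2.72% did not overlap in the lower direction and 3.03% in the higher. Among genes above 0 in all 6 libraries, as these 3 are, the shares were 6.8% and 3.13%, and among the 23 such members 13.0% (3 genes) and 0. In reads per library total, Srsf1 and U2af2 were lower (2.55% of all genes) and Srsf5 was higher (3.03%). The margins of Srsf1 and Srsf5 were very narrow. Counted in either direction, the FPKM of 4.23% of the members and 5.74% of all genes did not overlap. Hepatocyte markers, 6 of 10 at 0 throughout, summed to 297 to 492 FPKM in controls and 160.1 to 192 after tunicamycin. The 4 detected did not move one way, with 2 log2 differences positive and 2 negative (median 0.24). Alb (albumin) lay at 231, 300.5 and 213 FPKM in the control and 133, 96.3 and 127 in the tunicamycin libraries, lower without overlap, whereas Apob (apolipoprotein B) lay at 0.0425, 1.84 and 0.232 FPKM in the control and 5.34, 5.05 and 13.4 in the tunicamycin libraries, higher without overlap. The groups of Hnf4a and Fgb overlapped, and Hnf4a stood high in control 1 alone. Markers of simple epithelium (6 of 6 detected) summed to 442 to 569 and 368 to 452 FPKM, and those of dividing cells (6 of 6 detected) to 193 to 474 and 157 to 701. Stratified epithelium (3 of 6 at 0 throughout) summed to 456 to 842 and 199 to 707 FPKM. The part of these in the members' values was not tested. In bulk tissue, fewer cells of a type and less RNA per cell cannot be told apart.

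**Figure D4:**
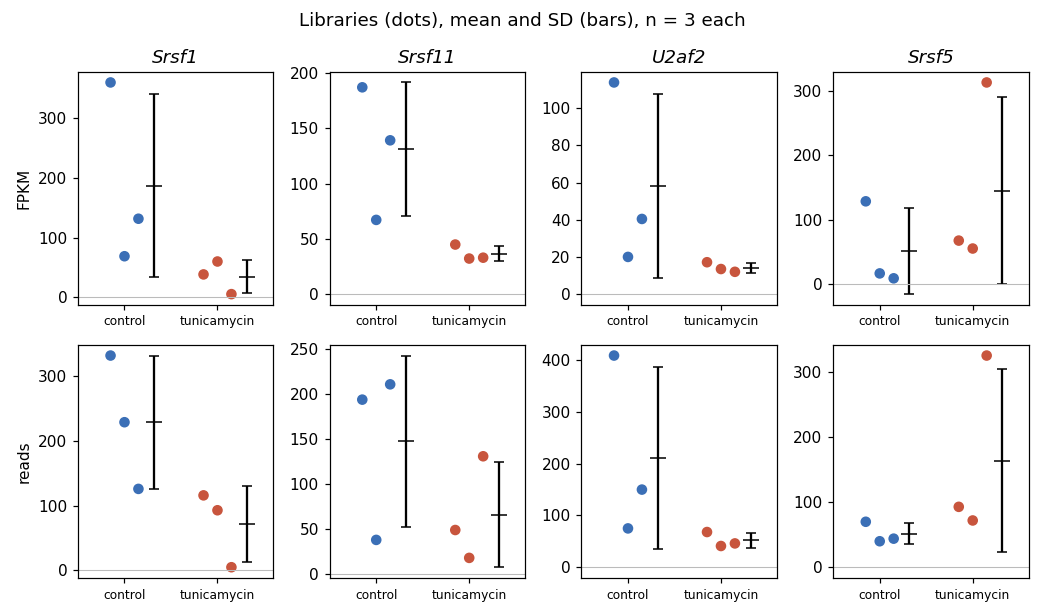
FPKM (upper row) and reads (lower row) of Srsf1, Srsf11, U2af2 and Srsf5 in each control (blue) and tunicamycin (red) library, with the mean and SD (n = 3 each) beside them. Srsf1 and U2af2 separate the groups in both units, Srsf11 in FPKM alone and Srsf5 in reads alone. Per library total, the margin in reads is very narrow for Srsf1 and Srsf5.

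The hnRNPs were the most read class, with 0.513, 0.643 and 0.627% of the reads in controls and 0.433, 0.614 and 0.609% after tunicamycin. Of 20 tested, 8 were positive and 12 negative (median -0.18, and -0.46 to 0.28 with single libraries left out), none passed and none separated the groups. Hnrnpul1, an hnRNP U-like protein, was the steadiest member detected in all 6 libraries, at 45.2, 54.4 and 45.7 FPKM in the control and 36.1, 57.2 and 57.2 in the tunicamycin libraries (highest over lowest 1.58; limma log2 fold change 0.02, SE 1.29, adjusted p = 0.999). Hnrnpu, a nuclear matrix and RNA-binding scaffold, lay at 66.2, 132 and 122 FPKM in the control and 132, 125 and 61.3 in the tunicamycin libraries. The groups of both overlapped almost wholly. Hnrnpa2b1, which also sorts RNA for transport, lay between 64.3 and 175 FPKM.

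Hnrnpk, a poly(C)-binding protein with the highest mean of all members (197 FPKM), was also among the least even, at 22.3, 414 and 50.2 FPKM in the control and 129.9, 567 and 0 in the tunicamycin libraries. Hnrnpa1, the classical antagonist of Srsf1 at 5′ splice sites, lay at 179.8, 87.1 and 35.5 FPKM in the control and 8.70, 53.4 and 120.5 in the tunicamycin libraries. Each held low and high libraries within each group. Many genes of these families have processed pseudogenes, Hnrnpa1 among them, and reads may be split between near-identical copies, so such values are uncertain.

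Hnrnpab, an A/B-type hnRNP, lay at 282, 68.3 and 165 FPKM in the control and 117, 72.2 and 30.6 in the tunicamycin libraries (limma log2 fold change -1.19, SE 1.00, adjusted p = 0.852). Hnrnpm lay at 4.17, 147 and 106 FPKM in the control and 171, 153 and 115 in the tunicamycin libraries, and Hnrnph1, a G-tract binder, at 16.01, 51.3 and 79.2 FPKM in the control and 23.9, 197 and 171 in the tunicamycin libraries. For Hnrnpm the low library was control 1, and leaving it out took the ratio of means from 1.70 to 1.15. Hnrnpd (AUF1, which binds AU-rich mRNA) was 1 of the 3 members with an unadjusted limma p under 0.05, at 0, 57.6 and 0 FPKM in the control and 38.4, 61.2 and 43.2 in the tunicamycin libraries (limma log2 fold change 3.62, SE 1.82, adjusted p = 0.852). Hnrnpa3, with the ERSE shown above, held 0, 2 and 0 reads in controls and 90, 0 and 111 after tunicamycin, and lay at 0 or near it in 1 tunicamycin library and every control. The groups of Hnrnpd overlapped, since control 2 exceeded both tunicamycin 1 and tunicamycin 3. The Hnrnpd ratio was 2.48 in FPKM means and 1.85 in reads per library total (edgeR log2 fold change 0.70). Its limma log2 fold change was 1.59 with a pseudocount of 10 and 5.81 with a pseudocount of 0.1.

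FPKM and reads did not always point the same way. Hnrnpl, which binds CA repeats, lay at 411, 150.2 and 79.7 FPKM in the control and 50.8, 72.2 and 147 in the tunicamycin libraries, a ratio of means of 0.421 (limma log2 fold change -1.06, SE 0.93, adjusted p = 0.852), but held 234, 181 and 249 reads in controls and 139, 245 and 559 after tunicamycin, a ratio per library total of 1.44. Of the 71 members tested, 59 had the same sign in FPKM and in edgeR on reads and 12 the opposite. Cuffdiff sums FPKM over a gene's transcripts, so the length behind a value can differ between libraries. Among 60 members with at least 10 reads in 2 or more libraries, the count per FPKM differed between libraries by less than a hundredth in 8 (13.3%, against 28.6% of all such genes), by more than 1.5-fold in 31 (51.7%, against 43.7%) and by more than 3-fold in 20. The 8 had a median of 4.5 annotated transcripts and the 20 a median of 9.5.

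**Figure D5:**
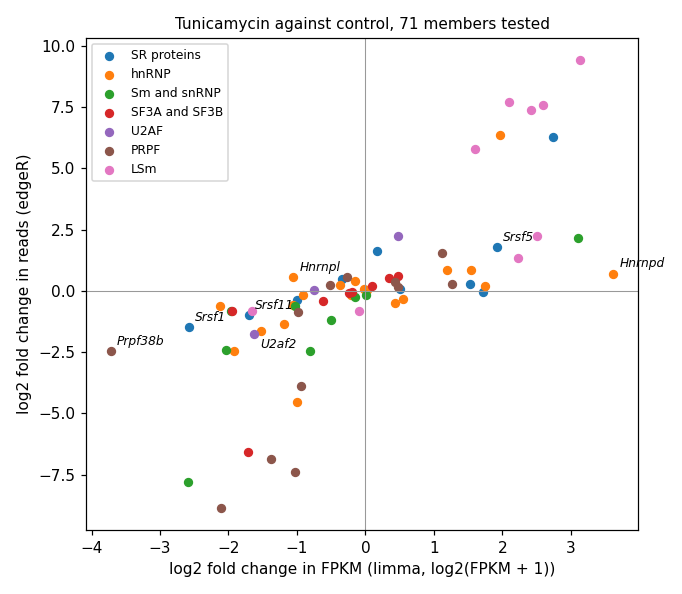
Log2 fold change of tunicamycin against control in FPKM (limma, log2(FPKM + 1)) and in reads (edgeR) for the 71 members tested, coloured by class. 59 members share a sign and 12, Hnrnpl among them, do not; reads values beyond 5 in either direction belong to genes with at most 2 reads in a group, depend on edgeR's prior count and are no measured fold.

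SF3A and SF3B, the U2 snRNP components at the branch point, were the most even class, with 0.187, 0.170 and 0.185% of the reads in controls and 0.150, 0.209 and 0.180% after tunicamycin. Of 8 tested, 3 were positive and 5 negative (median -0.22; -0.59 without tunicamycin 2). Sf3b1, the subunit that clamps the branch site, lay at 11.7, 11.03 and 19.0 FPKM in the control and 9.64, 28.7 and 18.6 in the tunicamycin libraries. Sf3b4 lay at 81.4, 77.4 and 54.1 FPKM in the control and 64.3, 73.6 and 43.1 in the tunicamycin libraries, the second narrowest range of the members above 0 in all 6 libraries (highest over lowest 1.89). In both the groups overlapped. Sf3a2 lay between 30.3 and 97.8 FPKM, Sf3b2 between 24.9 and 72.4 and Sf3b3 between 2.81 and 22.1. Sf3a3 was detected only in control 1 (67.3 FPKM) and tunicamycin 2 (44.7).

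The PRPF genes held 0.102, 0.195 and 0.152% of the reads in controls and 0.109, 0.187 and 0.126% after tunicamycin. Of 12 tested, 4 were positive and 8 negative, and the median of -0.73 was -1.55 without control 1 and 0.06 without control 3. Prpf8, the scaffold at the catalytic centre of the spliceosome, lay at 29.4, 30.9 and 35.1 FPKM in the control and 27.9, 59.9 and 47.6 in the tunicamycin libraries, a narrow range with overlapping groups. Prpf38b was another member with an unadjusted p under 0.05, at 22.5, 54.3 and 54.3 FPKM in the control and 30.7, 0 and 0 in the tunicamycin libraries (limma log2 fold change -3.72, SE 1.88, adjusted p = 0.852). Tunicamycin 1 exceeded control 1, so its groups overlapped, and the ratio of FPKM means was 0.234. Prpf3, a U4/U6 snRNP protein, lay at 0, 118 and 0 FPKM in the control and 63.3, 24.5 and 0 in the tunicamycin libraries, and Prpf38a at 35.03, 0 and 4.62 FPKM in the control and 0, 65.04 and 30.3 in the tunicamycin libraries. Prpf6 ranged from 3.13 to 18.5 FPKM, and Prpf4b, a kinase, is above 0 in all 6 libraries through FPKM values without a read in 4 of them. Prpf4, of the same snRNP as Prpf3, held 0, 48 and 120 reads in controls and 0, 0 and 0 after tunicamycin. With 3 reads over the group as the floor, for counting error only, it was 55.4-fold lower, though control 1 was at 0 as well. DESeq2 gave Prpf4 no adjusted p.

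Sm and other snRNP proteins, which form the rings around U1, U2, U4 and U5 RNA and their specific partners, held 0.0569, 0.106 and 0.119% of the reads in controls and 0.0750, 0.0303 and 0.0736% after tunicamycin. Of 9 tested, 2 were positive and 7 negative (median -0.82, and -1.77 to -0.03 with single libraries left out). Snrpb, the SmB protein, lay at 0, 159.7 and 149 FPKM in the control and 97.2, 0 and 175 in the tunicamycin libraries. Snrpa, the U1 A protein, lay at 3.49, 91.0 and 103 FPKM in the control and 46.6, 0 and 105 in the tunicamycin libraries, and Snrpc, the U1 C protein, at 128, 61.7 and 22.7 FPKM in the control and 44.3, 71.6 and 0 in the tunicamycin libraries. Snrpb was at 0 in 1 library of each group, Snrpa at 0 in tunicamycin 2 with 2 reads in control 1, and Snrpc at 0 in tunicamycin 3. Snrpd3 lay at 18.9, 106 and 0 FPKM in the control and 70.8, 29.7 and 0 in the tunicamycin libraries. Snrpg was detected in control 2 alone (220.0 FPKM), and Snrpa1 held 1 read in all and was not tested.

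Some LSm proteins form the ring on U6 RNA and, with Lsm1 in place of Lsm8, a ring that takes part in mRNA decay. The class was chosen by name and also holds genes outside these rings, Lsm10, Lsm12, Lsm14a, Lsm14b and Lsmd1 among them. The whole class held 0.000185, 0.0288 and 0.0307% of the reads in controls and 0.0427, 0.117 and 0.0191% after tunicamycin. Of 9 tested, 7 were positive and 2 negative, with a median of 2.23, and the median was 0 without tunicamycin 2. Lsm10, Lsm3 and Lsmd1 were detected in tunicamycin 2 alone, at 219, 75.9 and 149 FPKM. Lsm6 lay at 0, 5.38 and 0 FPKM in the control and 0, 213 and 4.38 in the tunicamycin libraries. The highest values of these 4 genes thus all lay in tunicamycin 2. So did that of Lsm4, at 48.6 FPKM, which was otherwise above 0 only in control 1 (0.761 FPKM). Lsm12 and Lsm14b, also positive, were highest in tunicamycin 1 in FPKM. In reads Lsm12 was highest in tunicamycin 2, with 102 reads against 75 in tunicamycin 1. In reads, with 3 reads over the group as the floor where a group held fewer, the class median was 4.38 on the log2 scale over 9 genes, and -0.19 over the 5 with a ratio when tunicamycin 2 was left out (a value added after the data were seen).

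Lsm12 lay at 0, 5.29 and 14.1 FPKM in the control and 122, 77.8 and 0 in the tunicamycin libraries, and Lsm2 at 0, 79.8 and 30.7 FPKM in the control and 81.8, 0 and 0 in the tunicamycin libraries. Lsm14b, a relative of the P-body protein Lsm14a, was the member with an unadjusted edgeR p under 0.05, and held 0, 0 and 0 reads in controls and 137, 92 and 0 after tunicamycin. It was detected in 2 of 3 tunicamycin libraries and no control, and tunicamycin 3 was at 0 as well. With 3 reads over the group as the floor, for counting error only, it was 77.2-fold higher in reads (edgeR adjusted p = 0.642, DESeq2 adjusted p = 0.136). It did not pass in limma (limma log2 fold change 3.14, SE 1.96, adjusted p = 0.852).

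In 3 further lists of the pathway 0 genes passed in limma and 0 in edgeR, while DESeq2 called 1 gene of each. Of 45 tested genes among 55 other snRNP and spliceosome proteins, 22 were positive and 23 negative (median -0.08), of 47 among 54 rows of splicing regulators outside these families 24 and 23 (median 0.02), and of 24 among 31 genes of snRNP assembly and the exon junction complex 11 and 13 (median -0.07). The unadjusted p was under 0.05 for 3, 3 and 0 of them in limma (3.09% of all genes), for 2, 1 and 0 in edgeR (1.49%) and for 6, 2 and 3 in DESeq2 (6.83%). In either direction, the FPKM of 8.89%, 17.0% and 12.5% of the tested genes did not overlap between groups, against 5.74% of all genes tested. In reads per library total the shares were 13.3%, 6.38% and 12.5%, against 5.57%. Of the 54 rows of splicing regulators, 24 were above 0 in all 6 libraries. Among all genes above 0 in all 6, 9.93% did not overlap in FPKM. The genes named next were picked by smallest unadjusted limma p, a choice that favours separated groups, so their separation is no result about the lists. Zrsr2, a U2af1-related protein of the minor spliceosome, lay at 22.99, 6.00 and 74.6 FPKM in the control and 0, 0 and 0 in the tunicamycin libraries, and Usp39, a protein of the tri-snRNP, at 35.4, 45.5 and 43.8 FPKM in the control and a trace, 0.635 and 17.1 in the tunicamycin libraries. Both were lower in all 3 tunicamycin libraries, while Snrnp27, another tri-snRNP protein, was higher in all 3, at 0.894, 0 and 0 FPKM in the control and 50.4, 45.8 and 14.03 in the tunicamycin libraries, as was Xab2, at 0, 0 and 0 FPKM in the control and 15.5, 14.99 and 14.8 in the tunicamycin libraries. Among regulators, Luc7l, a U1-associated protein, lay at 192, 9.96 and 51.5 FPKM in the control and 5.39, 0 and 0.111 in the tunicamycin libraries. All its tunicamycin libraries lay below the controls in FPKM, but their reads overlapped, at 304, 46 and 47 reads in controls and 50, 0 and 1 after tunicamycin. Pnn (pinin) lay at 0, 0 and 0 FPKM in the control and 15.6, 18.6 and 34.99 in the tunicamycin libraries and Rbm39 at 1.11, 5.08 and 15.1 FPKM in the control and 154, 10.5 and 56.8 in the tunicamycin libraries. Pnn was thus seen in no control and in every tunicamycin library. In the third list Smn1, which loads Sm rings onto snRNAs, lay at 0, 0 and a trace FPKM in the control and 27.3, 1.79 and 34.3 in the tunicamycin libraries (a trace being an FPKM above 0 without a read), and Ddx20, of the same complex, at 36.1, 6.33 and 10.3 FPKM in the control and 0, 0 and 0.194 in the tunicamycin libraries. Thoc2 lay at 0, 0 and 0.203 FPKM in the control and 12.2, 13.6 and 15.1 in the tunicamycin libraries and Rnps1 at 0.348, 36.8 and 3.22 FPKM in the control and 33.6, 71.97 and 28.2 in the tunicamycin libraries. All limma adjusted p-values of these 11 genes were 0.852. DESeq2 made excess false calls in simulated data with reads in clumps, which limits its calls here. The DESeq2 calls were Zrsr2 (DESeq2 adjusted p = 0.0109; edgeR 0.642; 0.670 to 0.906 over the limma settings), Pnn (DESeq2 adjusted p = 0.00581; edgeR 0.642; 0.670 to 0.906 over the limma settings) and Ddx20 (DESeq2 adjusted p = 0.0483; edgeR 0.642; 0.670 to 0.906 over the limma settings), each a gene at or near 0 reads throughout 1 group.

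The separating members lie at chr11:88047373-88053755 (Srsf1), chr3:158010473-158036639 (Srsf11) and chr7:5062143-5079938 (U2af2) in mm10, by GENCODE M21. Of the 81 members, 37 overlap another annotated gene, Srsf1 and Srsf11 included, and 17 share their locus in the table with another gene. The library kit keeps strand, but the sources used here do not say whether counting used it, so reads of such a gene and its partner cannot be told apart.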

How the data were processed

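RNA sequencing of 6 libraries labelled liver was used, 3 control and 3 tunicamycin, with groups and replicate numbers taken from the labels. Per the labels, rRNA was depleted and stranded libraries were made; per the submitters' processing notes, tools included HISAT2 2.0.4, cutadapt 1.9.3 and Cuffdiff, with the build mm10. The authors deposited FPKM per gene, from Cuffdiff with an Ensembl annotation per the series' design text. They also deposited estimated counts, with a scaling that the sources used here do not describe. In each library 97.2% to 98.0% of the count values above 0 lay within 0.01 of a whole multiple of a step between 0.9953 and 1.0953, so values were divided by it and rounded to whole reads.

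Groups were compared with limma 3.58.1 in R 4.3.3 by moderated tests with a mean-variance trend and no covariate, on log2(FPKM + 1). Genes entered at a mean FPKM of 1 or more, which left 7696, with 2-sided Benjamini-Hochberg adjusted p under 0.05 over all of them. edgeR 4.0.16 (quasi-likelihood, TMM) and DESeq2 1.42.0 (poscounts size factors) on the whole reads were alternatives, beside other pseudocounts, filters and scalings, no trend, a replicate block and each library left out. Scripts were tested on simulated data. The first simulation was rewritten after it gave many false calls. In the simulation with reads in clumps DESeq2 still made excess false calls. Intervals and floors cover counting error only, not the clumping of reads.

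The members, lists and alternatives were chosen with earlier results of these data known. Named are, in each class, up to 4 members with the highest mean FPKM, up to 6 per direction whose groups did not overlap, members at 0 or above 0 in all 6 libraries, and up to 4 genes of each other list by unadjusted p, of which 1 is not reported here; others named were chosen after their values were seen. So were the motifs, the boxes marked, the transcript lengths, the counts per FPKM and the minimum of 10 reads.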

Additional observations from a re-analysis of the deposited data

How the results depend on the processing

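0 members passed under every setting run, in limma, edgeR and DESeq2. Over all genes, 5 passed in limma, against 2 with a pseudocount of 10, 2 with a mean FPKM of at least 5, 0 without that filter, 0 without the variance trend, 0 with a replicate block, 3 in edgeR and 44 in DESeq2. The replicate block is only a check, since deviations of same-numbered libraries were uncorrelated (-0.0093, -0.014 and 0.0023), and it changed no member's call.

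Leaving out each library in turn gave 0 to 0 genes when the 7696 genes were kept. In a first version, the filter was applied again to the 5 libraries left, which called 0 to 7 genes: 2 without control 2, 7 without control 3 and 0 without each of the other 4. The version that keeps the genes was adopted after those counts were seen, on the ground that it changes a single choice, and the re-filtered version was added as an alternative. No member was called in either version.

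Class medians moved with the unit and the libraries. The PRPF median was 0.08 with a mean FPKM of at least 5, and the LSm median was 5.79 in edgeR and 6.01 in DESeq2, fitted values that depend on genes at 0 in a group. With libraries left out, in both versions together, the medians ranged from -0.0556 to 0.97 (SR), -0.46 to 0.28 (hnRNP), -1.77 to -0.03 (Sm and snRNP), -0.59 to -0.20 (SF3), -2.19 to 0.32 (U2AF), -1.55 to 0.0562 (PRPF), 0 to 3.13 (LSm) and -0.42 to 0.28 (all members). Over all genes the median ranged from -0.17 to 0.32 with the genes kept. The cause was not tested.

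Log2 fold changes were followed for 9 named members, picked after their values were seen. With libraries left out they ranged from -3.22 to -1.61 for Srsf1, -2.12 to -1.39 for Srsf11, -2.19 to -0.97 for U2af2, 1.14 to 3.02 for Srsf5, 2.64 to 5.57 for Hnrnpd, -1.60 to -0.42 for Hnrnpl, -5.38 to -2.89 for Prpf38b, 2.25 to 4.71 for Lsm14b and -0.08 to 0.24 for Hnrnpul1. Hnrnpul1 reversed in sign without control 1 (-0.022), control 3 (-0.014), tunicamycin 2 (-0.084) or tunicamycin 3 (-0.084), and in DESeq2 (-0.024). Hnrnpl reversed in edgeR (0.57) and DESeq2 (0.51). Of the 71 members, 59 kept their sign in edgeR and 59 in DESeq2. Depth limits these values, since 191 of 486 member values held 0 reads.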
